A study of Mus musculus with 8 samples.

Results

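The *Hox* genes were examined in the fetal brain of control mice and of mice whose dams had been stressed during pregnancy. The members were all genes of the deposited count tables whose symbol is that of a protein-coding gene of the *Hoxa*, *Hoxb*, *Hoxc* or *Hoxd* cluster, which gave 39 of 54752 listed genes, with antisense and other non-coding transcripts of the clusters left out. Whole brains, with forebrain, midbrain and hindbrain, were collected from C57BL/6Slac wild type embryos at E15.5, and poly(A) RNA of each brain was sequenced as 1 library. The control group held 4 brains, the females F36 and F37 and the males M30 and M31, of dams that were not stressed. The stress group held 4 brains, the females F34 and F35 and the males M28 and M29, of dams given chronic unpredictable mild stress (CUMS), a daily change of mild stressors that ended the day before collection. In the study's library table all controls belong to 1 litter and all stressed brains to a different one, so condition and litter cannot be told apart, and the p-values below measure the spread between littermates. The same table words the tissue in a way that may mean a hemisphere, while the methods name the whole brain, and where the cut behind the hindbrain lay in each animal is not given in the sources used here.

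*Hox* genes encode homeodomain transcription factors that give cells their position along the body axis. They lie in 4 clusters, and a gene's paralog group, the number in its name, follows its order in the cluster: low-numbered groups begin to be expressed early and far forward, high-numbered groups later and further back. In the central nervous system the forebrain and midbrain express none of them, the low groups are expressed in the segments of the hindbrain called rhombomeres, groups 4 and 5 from the caudal hindbrain backwards, and the higher groups mainly in the spinal cord. In these data the *Hox* genes of groups 1 to 3, summed by group, were read within a 2.36-fold range of summed CPM over the 8 brains, whereas those of groups 4 to 8 differed widely between littermates, by 100-fold in *Hoxa5*, and none of the members tested was called for the stress group.

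The homeobox, the 180 bases that encode the homeodomain, shows how alike the members are that varied most. The runs printed here, 5′ to 3′ from the GENCODE transcripts on GRCm38 (the assembly of mm10), are those of *Hoxa5*, the member read at the highest level, and of *Hoxb8*, the gene whose counts came nearly all from 2 brains. Capitals mark the 18 bases in the recognition helix that encode a stretch found in all 39 members.
Hoxa5: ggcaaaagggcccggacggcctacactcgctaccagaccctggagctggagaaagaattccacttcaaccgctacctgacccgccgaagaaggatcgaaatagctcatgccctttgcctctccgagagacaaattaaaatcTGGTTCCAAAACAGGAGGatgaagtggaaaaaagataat
Hoxb8: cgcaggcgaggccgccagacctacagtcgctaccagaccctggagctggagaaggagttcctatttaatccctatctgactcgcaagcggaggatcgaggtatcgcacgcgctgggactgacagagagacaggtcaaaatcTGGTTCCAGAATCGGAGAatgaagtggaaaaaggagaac
The homeobox of *Hoxa5* (chr6:52202632-52202811, minus strand) lies in its exon 2, as does that of *Hoxb8* (chr11:96284174-96284353, plus strand). The pair shared 133 of 180 bases (73.9%), and 45 of the 60 residues they encode. The longest run shared by the homeoboxes of any pair of members was 52 bases, which is shorter than the reads of 100 bases. No run of 100 bases of any of the 39 members' transcripts was found in a gene other than those that overlap it in the genome. Where members overlap each other, as *Hoxd4* with *Hoxd3* and *Hoxc5* with *Hoxc10*, a read can match both.

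Counting at the clusters was limited by overlap. The *Hoxa* cluster (mm10 chr6:52155590-52260880, 11 members, minus strand), the *Hoxb* cluster (chr11:96194316-96368256, 10 members), the *Hoxc* cluster (chr15:102921103-103036852, 9 members) and the *Hoxd* cluster (chr2:74668310-74765142, 9 members) also held 47 other annotated genes. In 10 members over 10% of the exon bases were covered by another gene, and the counting as stated took no account of strand and by default dropped read pairs that fell on more than 1 gene. *Hoxd4* was covered over 100% of its exon bases, so its count of 0 in every brain cannot be read as absence. *Hoxd3* was covered over 62.9% and *Hoxb3* over 52.9%, so their levels per kilobase may be understated. Each library held 25320109 to 29105710 counts on genes, and the *Hox* members took 0.00198% to 0.0162% of them. A gene with 0 counts may thus have a level of up to 0.103 to 0.118 CPM (counts-per-million, elsewhere on TMM-scaled totals), which corresponds to 3 counts in a library. Intervals and this limit cover counting error only.

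Of the 39 members, 12 had no count in any brain, 9 had 1 to 23 counts over all 8 brains, and 18 had 24 or more. The 12 without a count were *Hoxd4*, for the reason given, *Hoxc8*, *Hoxc9*, *Hoxb13* and all 8 members of groups 10 to 12. The 9 with few counts were *Hoxa7*, *Hoxa9*, *Hoxa13*, *Hoxb1*, *Hoxb9*, *Hoxc13*, *Hoxd8*, *Hoxd9* and *Hoxd13*. Levels of different genes were compared per kilobase of merged exons. By group, the mean summed level over the 8 brains was 15.6 CPM per kilobase in group 5, 7.94 in group 4, 2.97 in group 3, 2.92 in group 2, 1.56 in group 6, 1.28 in group 8, 0.401 in group 7 and 0.226 in group 1. On exon bases that no other gene covers, group 3 stood at 6.27 CPM per kilobase, and the order of the groups was kept. The brains differed too much in groups 6 to 8 for their order to be read. Group 9 had at most 6 counts in a brain, and group 13 had 1 to 4.

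**Figure D1:**
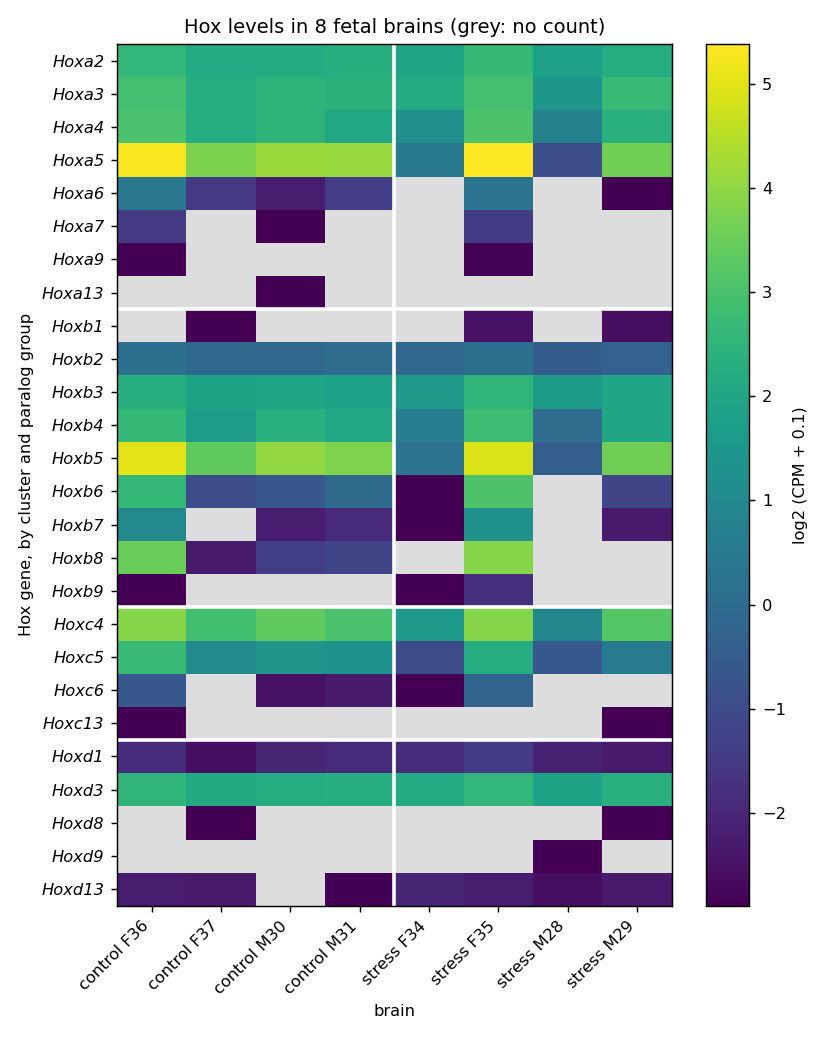
Level of 26 of the 27 *Hox* genes with a count, as log2 (CPM + 0.1) in colour, for each gene (vertical axis, by cluster and paralog group) in each of 8 brains (horizontal axis, 4 control and 4 stress), with grey where there was no count. Control F36 and stress F35 are the brightest columns, and stress F34 and stress M28 the darkest in the members of groups 4 and 5.

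The members with the lowest numbers are those of the rhombomeres. *Hoxb1*, which gives the fourth rhombomere its identity in the early embryo, had 5 counts in all, and *Hoxd1* had 2 to 7 per brain. Group 1 as a whole had 10 to 21 counts per brain.

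*Hoxa2*, the only *Hox* gene expressed as far forward as the second rhombomere, was the highest of group 2. Its level was 5.93, 4.44, 4.53 and 4.92 CPM in control F36, F37, M30 and M31 and 3.94, 6.16, 3.48 and 4.62 CPM in stress F34, F35, M28 and M29. The highest brain stood 1.77-fold above the lowest, and both were stressed. *Hoxd3* was the highest of group 3 and of the *Hoxd* cluster, with 5.64, 4.26, 4.57 and 4.67 CPM in the same 4 control brains and 4.38, 5.92, 3.55 and 5.0 CPM in the stressed ones, a 1.67-fold range. *Hoxa3*, a regulator of caudal hindbrain and pharyngeal development, ranged over 2.86-fold, *Hoxb3* over 1.91-fold and *Hoxb2*, which acts in facial motor neurons, over 1.62-fold. The levels of the stress group enclosed or overlapped those of the control group in all of these genes.

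*Hoxc4* was the highest gene of group 4 (3.32 CPM per kilobase) and of the *Hoxc* cluster, though on exon bases that no other gene covers *Hoxa4* stood above it, at 3.68 CPM per kilobase. Its level was 14.5, 7.22, 10.2 and 8.01 CPM in control F36, F37, M30 and M31 and 2.86, 14.6, 1.78 and 9.11 CPM in stress F34, F35, M28 and M29. Stress F34 and M28 stood below every control brain, stress F35 level with the highest control brain, and stress M29 among the controls. *Hoxa4* and *Hoxb4* had the same brains at both ends, with ranges of 5.36-fold and 7.30-fold against 8.20-fold for *Hoxc4*.

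Group 5, whose genes pattern the caudal hindbrain and the cervical cord (*Hoxa5* also the respiratory and phrenic circuits), had the highest summed mean level and was among the most uneven. It was the highest group in 6 brains, but in stress F34 and M28, at 1.19 and 0.64 CPM per kilobase, it lay below groups 2, 3 and 4. *Hoxa5*, the highest of the group and of the *Hoxa* cluster (chr6:52201754-52204587), had 1098 counts in control F36 (39.9 CPM), 377 in F37 (13.3 CPM), 480 in M30 (17.4 CPM) and 489 in M31 (17.2 CPM). In the stress group it had 35 counts in F34 (1.27 CPM), 1059 in F35 (41.8 CPM), 12 in M28 (0.418 CPM) and 354 in M29 (12.2 CPM). The exact 95% binomial interval, on the unscaled totals, was 0.216 to 0.731 CPM in M28 and 39.3 to 44.4 CPM in F35, so the 100-fold range is far outside counting error. *Hoxb5*, the highest gene of the *Hoxb* cluster (chr11:96303336-96306121), had 33.1, 10.2, 16.2 and 13.8 CPM in control F36, F37, M30 and M31 and 1.09, 30.3, 0.662 and 12.0 CPM in stress F34, F35, M28 and M29. The range of *Hoxb5* was 50.0-fold, with F36 and F35 again highest and F34 and M28 lowest. *Hoxc5* ranged over 16.2-fold, with F36 highest and F34 lowest. Group 5 thus split the stress group, with 2 brains far below and 1 brain above the 3 lower controls.

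Groups 6 to 8, whose expression in the nervous system lies mainly in the spinal cord, were read mostly in control F36 and stress F35. *Hoxb6*, the highest of group 6, had 168 counts in F36 and 12, 15 and 25 in control F37, M30 and M31, against 1, 210, 0 and 10 in stress F34, F35, M28 and M29. *Hoxb7* had 52, 0, 3 and 5 counts in control F36, F37, M30 and M31 and 1, 59, 0 and 3 in stress F34, F35, M28 and M29. *Hoxb8* (chr11:96281905-96285315), which also acts in sensory circuits of the dorsal cord, had 312, 3, 8 and 10 counts in the control brains in that order, and 0, 374, 0 and 0 in the stressed ones. At 14.8 CPM in F35, *Hoxb8* was at least 136-fold higher than in a brain with no more than 3 counts. *Hoxa6* and *Hoxc6* were highest in the same pair of brains, with 33 and 15 counts in F36 and 28 and 19 in F35, and at most 8 in any other brain. *Hoxc8*, whose homeodomain differs from that of *Hoxb8* at 1 of its 60 residues (59 shared), had no count in any brain, F36 and F35 included. *Hoxb9*, the highest of group 9, had 1 count in F36, 1 in F34, 5 in F35 and none in the other 5 brains. *Hoxd13*, the highest of group 13, had 3, 3, 0 and 1 counts in control F36, F37, M30 and M31 and 4, 3, 2 and 3 in stress F34, F35, M28 and M29, close to the limit in all.

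The brains took nearly the same order in gene after gene. Control F36 and stress F35 were the highest pair in 18 of 18 members with 24 or more counts, 7 of 7 in groups 1 to 3 and 11 of 11 in groups 4 to 8, in *Hoxd1* by 7 and 5 counts against at most 5. Stress F34 and stress M28 were the lowest pair in 6 of 6 members of groups 4 and 5 and in 11 of the 18. These counts describe the 8 brains, and the members are not independent, since all are read from the same libraries. The ratio of the highest to the lowest brain in summed CPM was 2.36 in group 1, 1.74 in group 2 and 2.08 in group 3, against 6.97 in group 4 and 48.5 in group 5. It was at least 97.0 in group 6, at least 24.7 in group 7 and at least 136 in group 8, where the lowest brain was set to 3 counts.

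**Figure D2:**
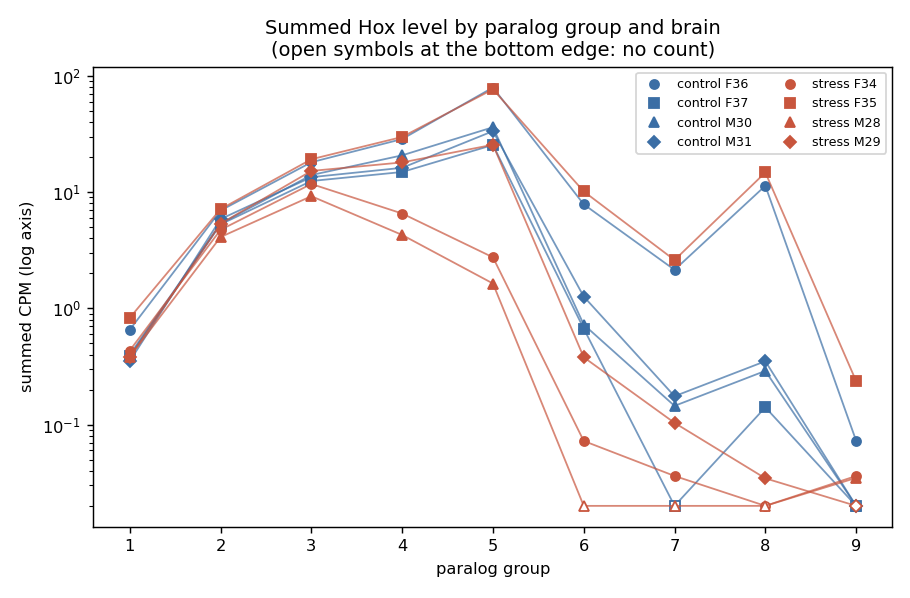
Summed CPM of each paralog group (horizontal axis, groups 1 to 9; vertical log axis) in each of 8 brains, control in blue and stress in red, with open symbols at the bottom edge for groups with no count. The lines run together in groups 1 to 3 and part from group 4 on, where control F36 and stress F35 stay on top and stress F34 and stress M28 lie below the rest in groups 4 to 6, at 2.75 and 1.64 CPM in group 5.

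The make-up of the *Hox* counts within a brain, which does not depend on scaling between libraries, showed the same split. Groups 1 to 3 made up 63.8% of the *Hox* counts in stress F34 and 69.5% in stress M28 (exact 95% intervals 60.3% to 67.3% and 65.5% to 73.3%), against 16.5% to 32.1% in the other 6 brains. Groups 6 to 8 made up 13.7% in control F36 and 17% in stress F35, against at most 2.52% elsewhere. In stress M28 they had 0 of 567 *Hox* counts, with an exact upper limit of 0.648%. Total *Hox* level ran from 19.7 CPM in M28 and 26.5 CPM in F34, over 59.4 to 77.9 CPM in control F37, M30 and M31 and stress M29, to 155 CPM in F36 and 162 CPM in F35. In bulk RNA of a whole brain, fewer cells that express a gene and less RNA of it per cell cannot be told apart.

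Among all 17865 genes tested, these members were among those that varied most between brains after sex and condition were fitted as additive terms. The residual SD of log2 CPM was 2.47 for *Hoxb6* (rank 1), 2.24 for *Hoxa5* (rank 3), 2.05 for *Hoxb5* (rank 4), 1.23 for *Hoxc5* (rank 8), 1.10 for *Hoxc4* (rank 11), 1.01 for *Hoxb4* (rank 15) and 0.845 for *Hoxa4* (rank 25), against a median of 0.0801 over all genes. So 4 of the first 10 genes and 7 of the first 25 were *Hox* genes of groups 4 to 6. *Hoxa3* ranked 293, *Hoxb3* 1352, *Hoxa2* 2374, *Hoxd3* 2933 and *Hoxb2* 4612. The spread of all genes rises at low counts, which the plot of spread against level shows.

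**Figure D3:**
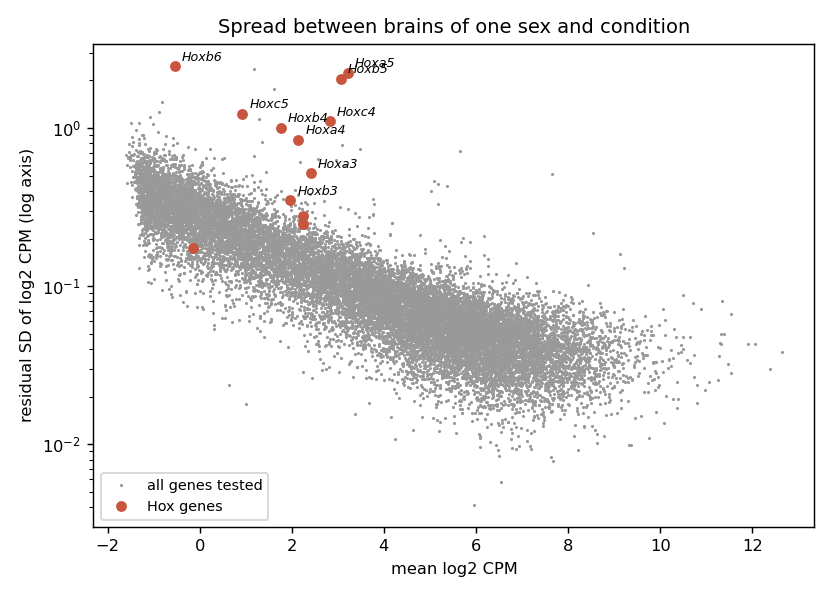
Residual SD of log2 CPM after sex and condition (vertical log axis) against mean log2 CPM (horizontal axis) for the 17865 genes tested, grey, with the 12 tested *Hox* genes in red. *Hoxb6*, *Hoxa5* and *Hoxb5* lie at the top, at 2.47, 2.24 and 2.05, while *Hoxb2* (0.174) and *Hoxd3* (0.248) lie within the cloud of genes of their level.

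The comparison of stress with control asked whether maternal stress moved *Hox* transcription in the fetal brain. Of the 39 members, 12 passed the filter on low counts and were tested (*Hoxa2*, *Hoxa3*, *Hoxa4*, *Hoxa5*, *Hoxb2*, *Hoxb3*, *Hoxb4*, *Hoxb5*, *Hoxb6*, *Hoxc4*, *Hoxc5* and *Hoxd3*), and 0 were called up- or down-regulated at an adjusted p under 0.05 by edgeR's quasi-likelihood test, where 13.8% of all genes tested were called (7.27% lower in stress). DESeq2 also called 0 (9.29% of all genes), and 1 member, *Hoxc5*, had an unadjusted p under 0.05, against 26.9% of all genes. The groups overlapped in all 12, whereas 16.4% of all genes tested did not overlap. The Log2FC (stress vs. control) of the 12 was below 0 throughout, as it was for 49.4% of all genes, with a median of -0.30 against 0.0015 for all genes. Since the members rise and fall together from brain to brain, their signs are not separate observations.

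*Hoxa2* had a Log2FC of -0.13 ± 0.13 (SE), *Hoxb2* of -0.22 ± 0.21 and *Hoxd3* of -0.03 ± 0.12. *Hoxc4* was lower by a Log2FC of -0.52 ± 0.31, *Hoxa5* by -0.76 ± 0.47 and *Hoxb5* by -0.80 ± 0.46, with edgeR adjusted p of 0.292, 0.319 and 0.273. *Hoxc5*, named here after its values were seen, had the lowest value, -1.02 ± 0.38, with an edgeR adjusted p of 0.0710. Its level was 6.44, 1.94, 2.54 and 2.49 CPM in control F36, F37, M30 and M31 and 0.398, 4.58, 0.557 and 1.31 CPM in stress F34, F35, M28 and M29, so 3 of 4 stressed brains lay below all controls and 1 above 3 of them. *Hoxb6* had a Log2FC of -0.02 ± 0.65, an error too wide to give a direction.

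**Figure D4:**
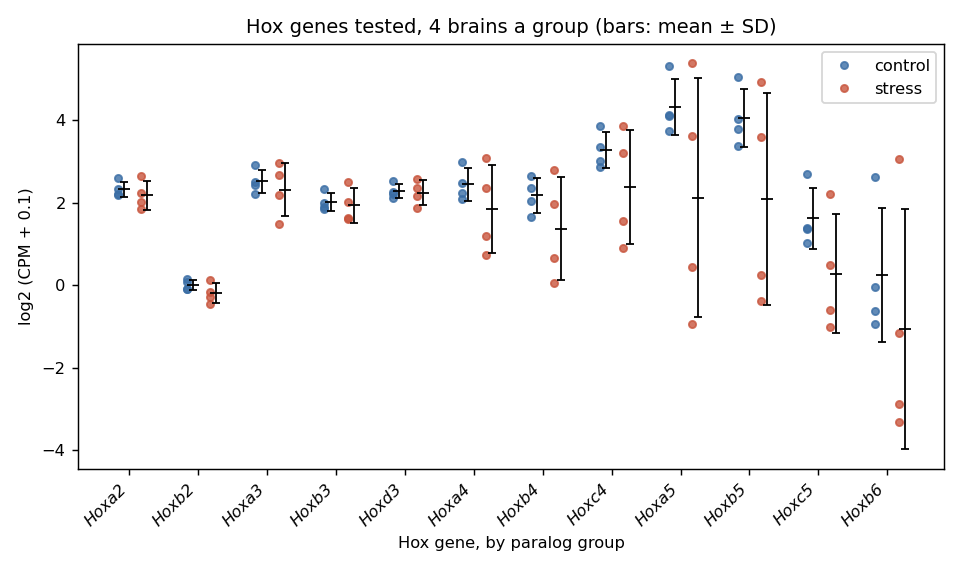
log2 (CPM + 0.1) of the 12 tested *Hox* genes (horizontal axis, by paralog group) in 4 control brains (blue) and 4 stressed brains (red), with black bars for mean ± SD. The stressed brains of groups 4 to 6 split into F35 at the top, M29 in the middle and F34 and M28 at the bottom, and overlap the controls in each gene.

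These results turned on single brains. Without stress F35, 7 of 12 tested members were called down-regulated (*Hoxa4*, *Hoxa5*, *Hoxb4*, *Hoxb5*, *Hoxb6*, *Hoxc4* and *Hoxc5*), where 7.22% of all genes were called lower, and the Log2FC of *Hoxa5* became -2.17 ± 0.47 and that of *Hoxb6* -3.52 ± 0.89. Without control F37, 1 of 12, *Hoxc5*, was called lower (5.38% of all genes), with -1.41 ± 0.35 and an edgeR adjusted p of 0.0110. Leaving out control F36 moved *Hoxb6* to 1.14 ± 0.86, and leaving out stress F34 or M28, the pair of low brains, left *Hoxa5* at -0.26 ± 0.37 or -0.39 ± 0.43, with 0 members called in all 3 fits (6.16%, 5.98% and 6.01% of all genes called lower). With control F36 and stress F35 both left out, a choice made after their *Hox* counts were seen, 6 members were called lower (6.55% of all genes), while both of the low brains, which are stressed, stayed in. Without the filter on low counts, 6 of 27 tested members were called lower (4.07% of all genes), and the SE of *Hoxa5* was given as 0.061 in place of 0.47 for the same counts.

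**Figure D5:**
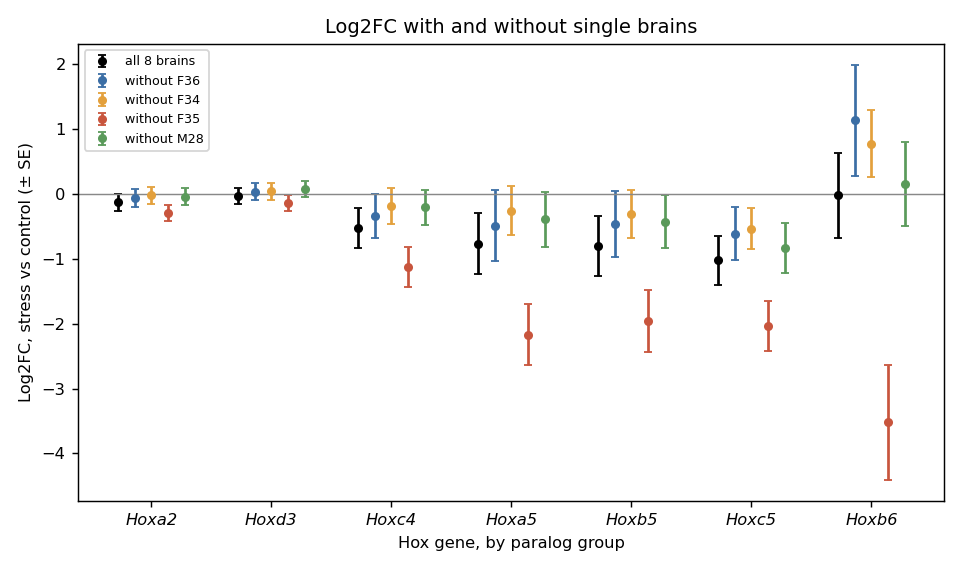
Log2FC (stress vs. control) ± SE of 7 *Hox* genes (horizontal axis, by paralog group) fitted on all 8 brains and with 1 brain left out. Leaving out F35 moves *Hoxa5*, *Hoxb5*, *Hoxc5* and *Hoxb6* to between -1.96 and -3.52, whereas *Hoxa2* lies between -0.29 and -0.02 and *Hoxd3* between -0.14 and 0.08 with any 1 brain left out.

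The brains highest in *Hox* counts, F36 and F35, were both female. In the same edgeR fit, 0 of 12 members were called between males and females (0.0896% of all genes were called), DESeq2 called 0 (0.084% of all genes), and 3 members had an unadjusted p under 0.05 (5.91% of all genes). The Log2FC (male vs. female) ran from -3.04 ± 0.75 for *Hoxb6* (edgeR adjusted p = 0.260) to -0.18 ± 0.12 for *Hoxd3*. The females did not move as one, since F34 was among the lowest brains and F37 lay with the control males. Without control F37, *Hoxb6* was called lower in males (0.0887% of all genes called), and without stress F34, *Hoxb6* and *Hoxb8* were (0.105%), while no filter on low counts gave 10 of 27 members (0.185%). The sex by stress interaction had 0 of 12 members called by edgeR or DESeq2 (0.0056% and 0.0112% of all genes) and 0 with an unadjusted p under 0.05 (6.31% of all genes). It rests on 2 brains per sex and condition, and 4 of 27 members were called without the filter (0.107% of all genes).

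Other annotated genes inside the clusters were also read, without a check of whether each is coding. Of the 47, 20 had a count. *Haglr*, antisense to *Hoxd3*, had 91 to 122 counts per brain and *Hoxaas2* 68 to 96, both nearly even. *Hoxaas3*, in the *Hoxa* cluster, had 25, 13, 11 and 13 counts in control F36, F37, M30 and M31 and 2, 19, 3 and 8 in stress F34, F35, M28 and M29, and *Hoxb5os*, which overlaps *Hoxb5*, had 3, 1, 4 and 5 against 0, 11, 0 and 0. So these 2 were lowest in F34 and M28 (with M29 also at 0 for *Hoxb5os*), as their coding neighbours were. *Hotairm1*, in the *Hoxa* cluster, had 20, 14, 26 and 14 against 10, 26, 6 and 9 counts. *Mir10a* and *Mir10b*, the microRNA genes of the clusters with a count, had at most 2 in a brain. Reads of a coding gene and of its antisense partner cannot be told apart without strand.

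Promoters are shown for *Hoxb8*, which was at 0 in 3 brains and at 14.8 CPM in another, and for *Hoxa2*, one of the even members, as the 250 bases before the RefSeq start on GRCm38.p6. The motifs searched on both strands were the TATA box TATAAA, the CCAAT box CCAAT, the site AGGTCA of nuclear receptors such as those for retinoic acid, and TGATNNAT, a form bound by Pbx and Hox proteins together, and none of these overlapped another in the runs printed. Capitals mark their matches.
Hoxb8: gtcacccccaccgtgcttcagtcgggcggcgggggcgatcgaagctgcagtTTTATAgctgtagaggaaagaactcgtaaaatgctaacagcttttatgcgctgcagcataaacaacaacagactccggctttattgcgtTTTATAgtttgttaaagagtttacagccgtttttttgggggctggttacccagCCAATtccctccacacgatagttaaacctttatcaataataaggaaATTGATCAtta
Hoxa2: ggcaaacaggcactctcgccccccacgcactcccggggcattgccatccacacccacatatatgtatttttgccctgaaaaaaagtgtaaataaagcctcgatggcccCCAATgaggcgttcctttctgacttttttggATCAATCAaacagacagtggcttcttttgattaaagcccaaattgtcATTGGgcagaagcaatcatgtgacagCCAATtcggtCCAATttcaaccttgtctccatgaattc
The *Hoxb8* run (chr11:96281655-96281904, plus strand) held 2 matches to TATAAA, 1 to CCAAT and 1 to TGATNNAT, and the *Hoxa2* run (chr6:52164832-52165081, minus strand) 4 to CCAAT and 1 to TGATNNAT. Neither held AGGTCA in this window. RefSeq promoters were at hand for 22 members, with 24 promoters between them. Of these 24, 4 had TGATNNAT (16.7%, against 7.68% of all promoters) and 4 TATAAA (16.7%, against 12.4%). CCAAT was in 14 (58.3%, against 33.8%) and AGGTCA in 6 (25%, against 14%).

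Genes that work with or upstream of the *Hox* genes were read from lists, in the comparison in which 13.8% of all genes tested were called. Of 9 *Hox* cofactors (Pbx, Meis and Pknox genes, whose products bind DNA with Hox proteins), all tested, 1 was called higher in stress, *Pbx2*, at 72.0 ± 2.16 CPM (SD, n = 4) in control and 78.0 ± 3.04 in stress. Of 9 rhombomere and caudal regulators, 5 were tested and 0 called, by edgeR. *Cdx2* and *Cdx4*, which switch on high-numbered *Hox* genes in the early trunk, had no count in any brain, and *Cdx1* had 1 count in F35 and 1 in M29. Of 18 retinoic acid pathway genes, 16 were tested, 3 were called higher (*Aldh1a3* and *Cyp26b1* among them) and 2 lower (*Rxrg* and *Aldh1a1*), with a median Log2FC of 0.03. *Cyp26b1*, which breaks down retinoic acid, rose by a Log2FC of 0.13 ± 0.04 and the receptor gene *Rxrg* had -0.30 ± 0.06. Of 18 genes for Polycomb and Trithorax chromatin factors, which hold *Hox* genes off or on, 5 were called higher and 0 lower (*Ezh2*, *Suz12*, *Phc1*, *Phc2* and *Jarid2*), each by a Log2FC of 0.10 to 0.15. The summed level of the chromatin list was 1696 to 1725 CPM in control and 1761 to 1824 CPM in stress, and among the stressed brains it was highest in F34 and lowest in M28, both low in *Hox* level.

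Markers of the parts that a brain sample can hold were read beside these results, in the same comparison (13.8% of all genes called). The 14 hindbrain markers summed to 131 to 149 CPM in control and 133 to 157 CPM in stress, highest in stress F35, then control F36. Of the 13 tested, 2 were called higher (*Barhl2* and *Olig3*) and none lower. *Mab21l2* (34.6 to 45.9 CPM, highest in F35) and *Barhl1* (35.8 to 40.8 CPM, highest in M28) made up most of the hindbrain sum. It mainly follows these 2 genes and cannot be read as the amount of hindbrain in a sample. *Lbx1*, a gene of dorsal hindbrain and cord neurons, had 6.62, 5.42, 4.89 and 3.83 CPM in control F36, F37, M30 and M31 and 3.91, 7.22, 3.31 and 4.56 in stress F34, F35, M28 and M29, with F35 and F36 highest. *Slc6a5*, the glycine transporter of inhibitory neurons of the caudal hindbrain and cord, was highest in F35 (17.4 CPM) and lowest in M28 and F34 (9.85 and 11.3 CPM), while F36 (14.6 CPM) lay below M30 and M31. Both are single genes of the list, of which 5 of 14 had their highest brain in F35 or F36 and 7 of 14 their lowest in F34 or M28. The 14 spinal motor neuron and cord markers summed to 168 to 173 CPM in control and 165 to 175 CPM in stress, with 0 of 13 called. This sum was highest in stress F34 and M28 (175 and 174 CPM), against 168 CPM in F36 and 171 CPM in F35. Of the 14, 6 had their highest brain in F34 or M28 and 2 in F35 or F36. Another count went the other way, with 5 of 14 lowest in F34 or M28 (*Mnx1*, *Lhx3*, *Chat*, *Slc5a7* and *Slc18a3*). *Foxp1* (90.7 to 103 CPM) and *Isl1* (40.9 to 45.1 CPM) made up most of the sum. It mainly follows these 2 genes and cannot be read as the amount of cord in a sample. *Mnx1*, which defines motor neurons, was at 0 to 0.106 CPM. The part of the hindbrain and cord markers in the *Hox* pattern was not tested.

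Markers of tissue around the brain followed another order. The 11 meninges and mesenchyme markers summed to 89.7 CPM in stress M28 and to 47.5 to 59.2 CPM in the other 7 brains. Of 9 tested, 3 collagen genes were called higher (*Col1a1*, *Col1a2* and *Col3a1*) and *Pdgfra* lower. *Pdgfra*, at 21.1 to 30.2 CPM, was the largest single part of the sum in every brain, so the sum follows the collagen genes only in part. *Col1a1* had 3.20, 0.845, 1.74 and 0.878 CPM in control F36, F37, M30 and M31 and 4.27, 1.34, 11.7 and 3.31 in stress F34, F35, M28 and M29. So F34 and M28, the lowest pair in groups 4 and 5, were the highest in *Col1a1*, followed by M29 and F36. Over the list, 6 of 11 markers were highest in F34 or M28, and *Foxc1* and *Foxc2* were lowest in F34. The 10 dorsal root and cranial ganglion markers were at 140 to 146 CPM in control and 140 to 165 CPM in stress, with 2 called higher (*Prdm12* and *Avil*). The 165 CPM was that of M28, and the other 7 brains lay at 140 to 151 CPM. *Avil* had 5.71 CPM in M28 and 1.89 to 2.71 CPM elsewhere, and *Prph* 23.3 CPM against 11.7 to 13.4 CPM. Over the list, 6 of 10 markers were highest in F34 or M28 and 2 in F35 or F36. The 11 muscle and cartilage markers were at 105 to 116 CPM in control and 109 to 126 CPM in stress, with *Col2a1* called higher. That sum was mainly *Col2a1* (51.4 to 69.6 CPM) and *Sox9* (46.1 to 55.1 CPM). *Myod1* and *Myog* had at most 3 counts in a brain, so the sum does not measure muscle. The 8 blood markers were at 361 to 408 CPM in control and 363 to 377 CPM in stress, with *Hbb-bs* called lower.

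Markers of the forebrain, the midbrain and isthmus and the cerebellum were read in every sample, with 13.8% of all genes called as the background. The 12 forebrain markers summed to 1629 to 1688 CPM in control and 1707 to 1765 CPM in stress, with 6 called higher and 1 lower, and F35, rich in *Hox* counts, was the lowest of the stressed brains. The 12 midbrain and isthmus markers summed to 131 to 144 CPM in control and 151 to 163 CPM in stress, with 4 of 11 called higher. The 10 cerebellum markers summed to 1022 to 1042 CPM in control and 1041 to 1103 CPM in stress, with 4 called higher and 1 lower (*Calb1*). *Meis2*, also in the list of cofactors, led this sum at 394 to 416 CPM. The summed levels of the lists differed between brains by far less than the *Hox* groups 4 to 8. A few abundant genes led several of these sums, so differences in scarcer markers may not show in them. Whether the share of caudal tissue in a sample moved with the *Hox* level was not tested.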

How the data were processed

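RNA of 8 E15.5 fetal brains was analysed, 4 of each group, 1 library per brain. Per the study's methods, reads were trimmed (Trim Galore), aligned to mm10 (TopHat2 2.1.1) and counted as pairs on GENCODE exons (featureCounts 1.6.3), and the authors deposited the resulting raw counts without normalization. Symbols were matched by gene identifier for 54723 of 54752 rows. Counts were filtered with edgeR's filterByExpr (minimum count 10, by group), normalized by TMM and tested over 17865 genes with glmQLFit and glmQLFTest (R 4.3.3, edgeR 4.0.16), with sex and condition in the model and Benjamini-Hochberg adjustment, threshold 0.05. The SE of a Log2FC was taken from its F value. CPM is on TMM-scaled totals. Spread is the residual SD of log2 CPM with a prior count of 2. The tests were checked on simulated counts. The study's model also held a batch term, which the labels of these 8 brains do not give. Values in each brain are given for members called, for those without overlap, and for the highest per kilobase in each paralog group and cluster. Other genes come from fixed lists. Members and lists were chosen with earlier results of these data known. Alternatives were DESeq2 1.42.0, other normalizations, filters, covariates and exon lengths, and leaving out brains. The other 8 animals of the study were not analysed here. Some results that the rule on named genes would take are not reported here.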

Additional observations from a re-analysis of the deposited data

Results flagged for a closer look

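Of 36 sets of 4 brains (18 members with 24 or more counts, control and stress apart), 11 had a single brain further from the rest than Dixon's 95% limit for 4 values. Chance marks about 1 in 20 such sets, but the members are not independent. All 11 were control F36 or stress F35, each time the highest brain of its group. In the control group F36 stood apart for *Hoxa5* (39.9 CPM), *Hoxa6* (1.20 CPM), *Hoxb6* (6.11 CPM), *Hoxb7* (1.89 CPM), *Hoxb8* (11.3 CPM) and *Hoxc5* (6.44 CPM). In the stress group F35 stood apart for *Hoxa6* (1.10 CPM), *Hoxb6* (8.29 CPM), *Hoxb7* (2.33 CPM), *Hoxb8* (14.8 CPM) and *Hoxc6* (0.750 CPM). No member of groups 1 to 4 was marked. The low levels of stress F34 and M28 were not marked, since a pair of low brains in a set of 4 leaves no single one far from the others.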

How the results depend on the processing

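Of 180 alternative values of the members' Log2FC, 145 kept their direction and their side of the threshold, 20 became called in the same direction and 15 changed sign. No paired analysis was made, because the groups come from different litters and nothing in the labels links a control brain to a stressed one. The count of members called for stress, 0 with all brains, was 6 without the filter on low counts, 6 without control F36 and stress F35 (chosen after seeing the data), and 0 to 7 with 1 brain left out. The count for sex was 10 without the filter and 0 to 2 with 1 brain left out, and for the interaction 4 and 0 to 0. With 1 brain left out, the Log2FC ran from -0.34 to 0.0868 for *Hoxa3*, -0.27 to 0.12 for *Hoxb3*, -0.14 to 0.0779 for *Hoxd3* and -3.52 to 1.14 for *Hoxb6*, and *Hoxb6* stood at 0.0527 without the sex covariate. All genes called numbered 2458, and 1590 to 2365 with 1 brain left out (1590 without stress M29). Listed genes called numbered 37 (13.8% of all genes tested were called), 20 by DESeq2 (9.29% of all genes) and 25 to 39 with 1 brain left out. The level of group 3 was 6.27 CPM per kilobase on exon bases no other gene covers, against 2.97. The cause of these moves was not tested. Depth limits groups 1, 9 and 13, and litter and condition cannot be told apart. Where the cut behind the hindbrain lay in each animal is not given.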
